A study of Mus musculus with 4 samples.

Results

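The genes described here are a chosen set of 10. They take part in or regulate the entry of long-chain fatty acids into heart mitochondria as carnitine esters, or handle or hydrolyse acyl-CoA. They were *Slc22a5*, *Cpt1a*, *Cpt1b*, *Cpt2*, *Crat*, *Acacb*, *Mlycd*, *Acot1*, *Acot2* and *Acot13*, found by exact symbol, and each occurred once among the 55401 genes of the expression table. RNA-seq was performed on hearts of 8-week-old mice, 2 wild-type and 2 heterozygous for *Ctcf*, with libraries numbered replicate 1 and 2 in each genotype. Heterozygous mice carried the CTCF-R567W substitution, made by CRISPR/Cas9 editing on a C57BL/6N background, and no other allele or treatment is named for either group. Values are relative transcript abundances (TPM), which are corrected for transcript length and sum to the same total in every library, so the read depth behind a value is unknown. They are given as scaled TPM, that is, TPM divided by a median-of-ratios factor for each library. The polyA RNA came from heart tissue of many cell types, so fewer cells of a type and less RNA per cell cannot be told apart. *Ctcf* itself stood at 6.15 and 5.99 scaled TPM in wild type, against 7.48 and 5.71 in heterozygotes (log2 fold change 0.09, adjusted p = 0.834 from limma), and gene-level TPM cannot separate the alleles.

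Long-chain fatty acids are activated to acyl-CoA in the cytosol, and acyl-CoA cannot cross the inner mitochondrial membrane. The carnitine shuttle solves this: CPT1 at the outer membrane moves the acyl group to carnitine, a translocase carries the acylcarnitine inwards, and CPT2 returns the acyl group to CoA in the matrix, where beta-oxidation begins. Malonyl-CoA inhibits CPT1, and its level is set by acetyl-CoA carboxylase, which makes it, and malonyl-CoA decarboxylase, which removes it. Acyl-CoA thioesterases hydrolyse acyl-CoA to free fatty acid and CoA, against the direction of activation. The adult heart draws most of its ATP from fatty acids, and *Cpt1b*, the muscle isoform, is its main CPT1 gene.

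The sequences of the neighbouring paralogs *Acot1* (chromosome 12, 84009490 to 84018371) and *Acot2* (chromosome 12, 83987861 to 83993873) are shown because their reads can be confused. Over 1236 aligned coding bases, 95.3% were identical. *Acot2* opens with 123 coding bases that have no counterpart in *Acot1*. As background, ACOT2 is a mitochondrial and ACOT1 a cytosolic enzyme. The next 150 aligned coding bases of both genes follow it, with the 13 bases that differ in capitals. All are on the plus strand of mm10, 5′ to 3′, from GENCODE transcripts.
Acot2 opening: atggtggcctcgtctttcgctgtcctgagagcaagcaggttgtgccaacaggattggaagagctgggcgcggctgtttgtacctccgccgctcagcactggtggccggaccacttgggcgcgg
Acot2 aligned: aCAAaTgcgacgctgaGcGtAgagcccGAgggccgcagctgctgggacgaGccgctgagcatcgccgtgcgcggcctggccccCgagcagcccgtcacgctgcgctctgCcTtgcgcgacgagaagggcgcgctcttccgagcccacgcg
Acot1 aligned: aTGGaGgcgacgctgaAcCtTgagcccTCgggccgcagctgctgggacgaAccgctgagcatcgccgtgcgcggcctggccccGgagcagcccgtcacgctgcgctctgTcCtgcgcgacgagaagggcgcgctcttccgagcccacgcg

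Of the 50-base windows of *Acot1* transcripts, 19.2% also occurred in transcripts of other genes, most often *Acot2*, and of those of *Acot2*, 27.7%. Other members share sequence too. For *Cpt1b*, 78.6% of such windows also lay in *Gm44502*, an overlapping gene model on the same strand, and for *Slc22a5*, 26.3% lay mostly in its neighbour *Slc22a21*. For *Cpt2*, *Crat*, *Acacb*, *Mlycd* and *Acot13* the shared part was 0.0%, and for *Cpt1a* it was 0.7%. *Crat* exons overlap those of *Dolpp1* and the antisense gene *Gm16323* on the opposite strand, and strand use in the counting is not given in the sources used here. *Dolpp1* stood between 2.36 and 3.39 scaled TPM and *Gm16323* was listed at 0 in 3 libraries and at 0.0947 in wild-type replicate 2, far under *Crat*.

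For 8 of the 10 genes, values were lower in both heterozygous hearts than in both wild-type hearts, and for 0 they were higher in both. Over all 10036 genes tested, 24% were separated this way in the lower and 23% in the higher direction. The median log2 fold change of the 10 genes was -0.29, and that of all tested genes was -0.01. None of the 10 was called by limma, which required a fold change over 1.5 and Benjamini-Hochberg adjusted p under 0.05. Such a call was made for 0.0299% of tested genes in the lower and 0% in the higher direction. An unadjusted limma p under 0.05 was reached by 3 members, *Mlycd*, *Acot2* and *Acot1*, all with lower heterozygous values. Over all tested genes the shares were 6.08% in that direction and 6.22% in the other. *Acot2* had 1.62 and 2.06 TPM in wild-type but 0.68 and 0.83 in heterozygous hearts. It thus met the minimum mean of 1 TPM for testing only through wild type, and its place in both counts is no independent support. An exact permutation test of a single gene with 2 hearts against 2 cannot give a two-sided p under 0.333.

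**Figure D1:**
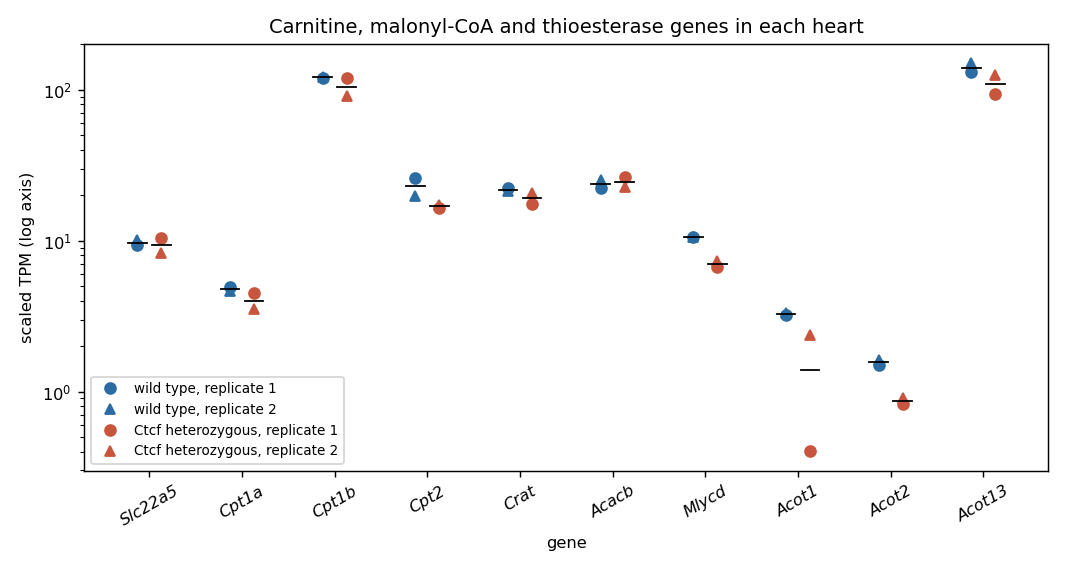
Scaled TPM (log axis) of the 10 genes in each of the 4 hearts, with circles for replicate 1, triangles for replicate 2 and bars for genotype means. *Acot13* and *Cpt1b* stand highest, and the genotypes overlap for *Slc22a5* and *Acacb* only.

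The members covered a wide span of abundance. In wild-type hearts the mean level ran from 140.2 scaled TPM for *Acot13* to 1.56 for *Acot2*, an 89.8-fold span. *Cpt1b* came next to *Acot13* at 121.0 scaled TPM. *Acacb*, *Cpt2* and *Crat* formed a middle tier at 23.8, 22.9 and 21.8 scaled TPM, within which neighbours overlapped between wild-type hearts. *Mlycd* and *Slc22a5* followed at 10.6 and 9.69 scaled TPM, then *Cpt1a* at 4.79, *Acot1* at 3.27 and *Acot2* at 1.56. Apart from the middle tier, each gene lay above the next in both wild-type hearts. In heterozygous hearts the values of *Acot13* and *Cpt1b* overlapped, as did those of *Acot1* and *Acot2*. The order was turned for *Mlycd* and *Slc22a5*, with both *Mlycd* values below both *Slc22a5* values. Both *Cpt2* values lay below both *Crat* values, a pair that overlapped in wild-type hearts.

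Carnitine enters the cardiomyocyte through OCTN2, the product of *Slc22a5* (chromosome 11, 53864542 to 53891660). Its level was 9.32 and 10.1 scaled TPM in the wild-type hearts and, in the same order of replicate 1 then 2 that is kept below, 10.5 and 8.33 in the heterozygous hearts. The heterozygous hearts lay on either side of the wild-type hearts. The log2 fold change was -0.05 (standard error 0.17, 95% confidence interval -0.44 to 0.35, adjusted p = 0.924 from limma), so a difference was not detectable and the interval still held changes of moderate size either way. Its neighbour *Slc22a21*, which codes for a related transporter, was higher in both heterozygous hearts, at 1.02 and 1.36 scaled TPM against 2.72 and 1.93. The log2 fold change of *Slc22a21* was 0.60 (adjusted p = 0.334), and with both genes summed the log2 fold change was 0.092.

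CPT1 is the step at which malonyl-CoA acts. *Cpt1b* (chromosome 15, 89416405 to 89425863) stood at 120.6 and 121.4 scaled TPM in wild type, against 119.2 and 91.3 in the heterozygous hearts. Wild-type hearts were nearly equal, and only heterozygous replicate 2 lay well under them. Its log2 fold change was -0.21 (standard error 0.20, 95% confidence interval -0.69 to 0.27, adjusted p = 0.671 from limma). The overlapping model *Gm44502* held between 1.44% and 1.93% of the TPM of both models together. *Cpt1a* (chromosome 19, 3322334 to 3385733), the isoform of liver and most other tissues, stood at 4.91 and 4.66 scaled TPM in wild-type and 4.50 and 3.52 in heterozygous hearts. As with *Cpt1b*, heterozygous replicate 2 was the lowest and replicate 1 was close to wild type. Its log2 fold change was -0.22 (standard error 0.15, 95% confidence interval -0.58 to 0.15, adjusted p = 0.569). Without heterozygous replicate 2 the log2 fold change of *Cpt1b* was -0.027 and that of *Cpt1a* -0.079, and without heterozygous replicate 1 they were -0.41 and -0.37. Of the TPM of *Cpt1a* and *Cpt1b* together, *Cpt1b* made up between 96.1% and 96.4%, and the genotypes overlapped.

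*Cpt1c*, the third gene of the CPT1 family and mainly known from neurons, is not among the 10 genes and was singled out after its values were seen. It stood at 2.21 and 2.07 scaled TPM in wild-type and 3.05 and 3.61 in heterozygous hearts, higher in both. Its log2 fold change was 0.46 (unadjusted p = 0.014 and adjusted p = 0.336 from limma, and 0.15 with TPM as deposited). With *Cpt1c* counted in, *Cpt1b* made up 94.4% and 94.7% of the CPT1 family TPM in wild type and 94.0% and 92.8% in heterozygotes, lower in both, a share that was not tested.

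CPT2, on the matrix side, reverses the CPT1 reaction. *Cpt2* (chromosome 4, 107903981 to 107923610) stood at 25.9 and 19.9 scaled TPM in wild type, against 16.5 and 17.3 in the heterozygous hearts. The heterozygous hearts were close to each other, and the spread between the wild-type hearts was larger than the gap between the genotypes. Means were 22.9 ± 4.29 for wild type and 16.9 ± 0.609 for heterozygotes (SD, n = 2). The fitted log2 fold change came to -0.40 (standard error 0.18, 95% confidence interval -0.84 to 0.03, adjusted p = 0.416 from limma). Carnitine acetyltransferase, encoded by *Crat* (chromosome 2, 30400471 to 30415813), buffers short-chain acyl-CoA in the matrix as acylcarnitine. *Crat* stood at 22.4 and 21.2 scaled TPM in wild-type and 17.6 and 20.8 in heterozygous hearts, where replicate 2 nearly reached the lower wild-type heart. *Crat* had a log2 fold change of -0.18 (adjusted p = 0.667, standard error 0.17), which was -0.067 without heterozygous replicate 1 and -0.29 without heterozygous replicate 2. For *Cpt2* the value was -0.23 without wild-type replicate 1 and -0.59 without wild-type replicate 2.

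The carnitine-acylcarnitine translocase gene *Slc25a20*, the step between CPT1 and CPT2, completes the shuttle. It stood at 12.7 and 13.9 scaled TPM in wild-type and 7.31 and 9.17 in heterozygous hearts, with the genotypes apart. Its log2 fold change was -0.64 (adjusted p = 0.322 and standard error 0.17 from limma), lower than those of *Cpt1a*, *Cpt1b* and *Cpt2*, a difference between genes that was not tested.

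The malonyl-CoA pair comprises a gene of synthesis and a gene of removal. *Acacb* (chromosome 5, 114146535 to 114250761) codes for the acetyl-CoA carboxylase isoform of the mitochondrial surface, whose malonyl-CoA acts on CPT1. *Acacb* stood at 22.2 and 25.4 scaled TPM in wild-type and 26.6 and 22.8 in heterozygous hearts. The genotypes overlapped, with a log2 fold change of 0.05 (standard error 0.17, 95% confidence interval -0.36 to 0.46, adjusted p = 0.923 from limma). This sign turned with TPM as deposited, to -0.37, and with mt- genes removed, to -0.27. *Mlycd* (chromosome 8, 119394878 to 119411102) codes for malonyl-CoA decarboxylase, which removes the inhibitor of CPT1. *Mlycd* stood at 10.6 and 10.6 scaled TPM in wild-type and 6.70 and 7.39 in heterozygous hearts. Replicates were close in both genotypes and the genotypes were well apart, with means of 10.6 ± 0.0129 and 7.05 ± 0.489 (SD, n = 2), the heterozygous mean being 66.6% of the wild-type mean. The log2 fold change was -0.53 (standard error 0.14, 95% confidence interval -0.87 to -0.18, unadjusted p = 0.0086 and adjusted p = 0.322, both from limma).

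The thioesterase genes held the lowest and the highest levels among the members. *Acot13* (chromosome 13, 24817948 to 24831540), which codes for a small thioesterase associated with mitochondria, stood at 130.6 and 149.9 scaled TPM in wild-type and 93.4 and 126.1 in heterozygous hearts. Heterozygous replicate 2 came close to the wild-type hearts. limma gave *Acot13* a log2 fold change of -0.36 (adjusted p = 0.505, standard error 0.22), which was -0.15 without heterozygous replicate 1 and -0.58 without heterozygous replicate 2. *Acot2* stood at 1.497 and 1.63 scaled TPM in wild-type and 0.828 and 0.912 in heterozygous hearts, with little spread inside a genotype. The heterozygous mean was 55.7% of the wild-type mean, while the log2 fold change, which is taken after adding 1 and so understates the change of a low gene, was -0.45 (standard error 0.14, adjusted p = 0.336).

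*Acot1* differed widely between the heterozygous hearts. It stood at 3.23 and 3.31 scaled TPM in wild-type and at 0.402 and 2.36 in heterozygous hearts. Both heterozygous values were lower, but replicate 1 was far under replicate 2. The log2 fold change of -0.98 had a standard error of 0.37 (95% confidence interval -1.85 to -0.10, adjusted p = 0.371 from limma). Without heterozygous replicate 1 it was -0.35 and without heterozygous replicate 2 it was -1.63, so heterozygous replicate 1 decides its size. Summed with *Acot2*, whose reads may be mixed with those of *Acot1*, the level was 4.73 and 4.93 scaled TPM in wild-type and 1.23 and 3.27 in heterozygous hearts. The summed log2 fold change was -0.92 (adjusted p = 0.34, standard error 0.29). *Acot1* made up 68.4% and 67.0% of that sum in wild type, against 32.7% and 72.1% in the heterozygous hearts.

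**Figure D2:**
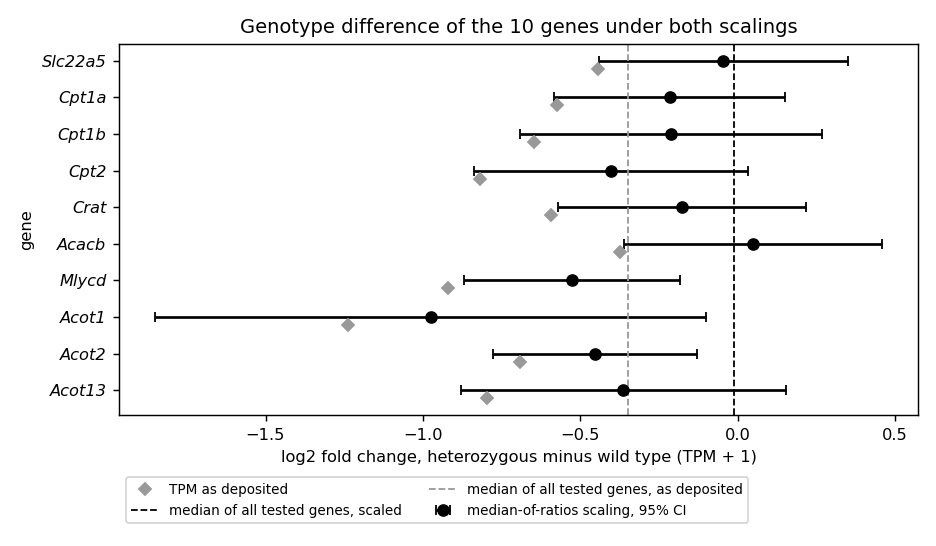
Log2 fold change (heterozygous minus wild type, after adding 1) of each gene, with black points and 95% confidence intervals from limma for scaled TPM and grey diamonds for TPM as deposited. Dashed lines mark the medians of all tested genes, -0.01 and -0.35, and with scaled TPM only the intervals of *Mlycd*, *Acot1* and *Acot2* lie below 0.

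Since TPM are shares of a total, the scaling sets the zero line. The mitochondrially encoded mt- genes took 64.7% and 61.1% of TPM in wild-type and 68.6% and 62.6% in heterozygous hearts. Their nuclear copies took 14.1% and 14.9% in wild-type and 17.2% and 19.8% in heterozygous hearts, higher in both. Without scaling, the typical tested gene had a log2 fold change of -0.35. On that deposited scale the genotypes were apart with heterozygous hearts lower for 10 of the 10 members and for 67.8% of all tested genes, and the members' median was -0.67. Relative to the median of all tested genes the members stood at -0.28 with scaled TPM and at -0.32 as deposited. With mt- genes and their nuclear copies removed, the relative value was -0.29, and under quantile normalization it was -0.23. The genotypes were then apart with heterozygous hearts lower for 6 members against 17.6% of tested genes, and for 7 members against 23.3%. Called members numbered 0 in all 3 settings, where calls were made for 0.11% of tested genes lower and 0.0199% higher as deposited, 0.04% and 0.02% with the removal, and 0.0199% and 0% under quantile normalization.

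Ratios between genes of the same library do not depend on the scaling, and 6 were compared. The ratio of *Acacb* to *Mlycd*, the gene of malonyl-CoA synthesis to that of its removal, was 2.10 and 2.39 in wild-type and 3.96 and 3.08 in heterozygous hearts. Both heterozygous ratios were higher, with a difference of 0.64 on the log2 scale. The ratio of *Cpt1b* to *Acacb* was 5.42 and 4.79 in wild-type and 4.49 and 4.01 in heterozygous hearts, lower in both. The ratio of *Crat* to *Cpt2* was 0.863 and 1.068 in wild-type and 1.070 and 1.199 in heterozygous hearts, so the nearest values of the genotypes were almost equal. For these 3 ratios the exact permutation test gave a two-sided p of 0.333, the smallest that 2 hearts against 2 allow (adjusted p = 0.667 over 6 ratios).

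The other ratios overlapped between genotypes. *Cpt1b* to *Cpt1a* was steady, at 24.5 and 26.0 in wild-type and 26.5 and 26.0 in heterozygous hearts. *Cpt1b* to *Cpt2* was 4.65 and 6.11 against 7.23 and 5.27. *Acot2* to *Acot1* was 0.463 and 0.492 against 2.06 and 0.386, where heterozygous replicate 1, the heart with the low *Acot1* value, stood alone. Their exact permutation p values, two-sided, were 0.667, 0.667 and 1 (adjusted 0.800, 0.800 and 1).

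**Figure D3:**
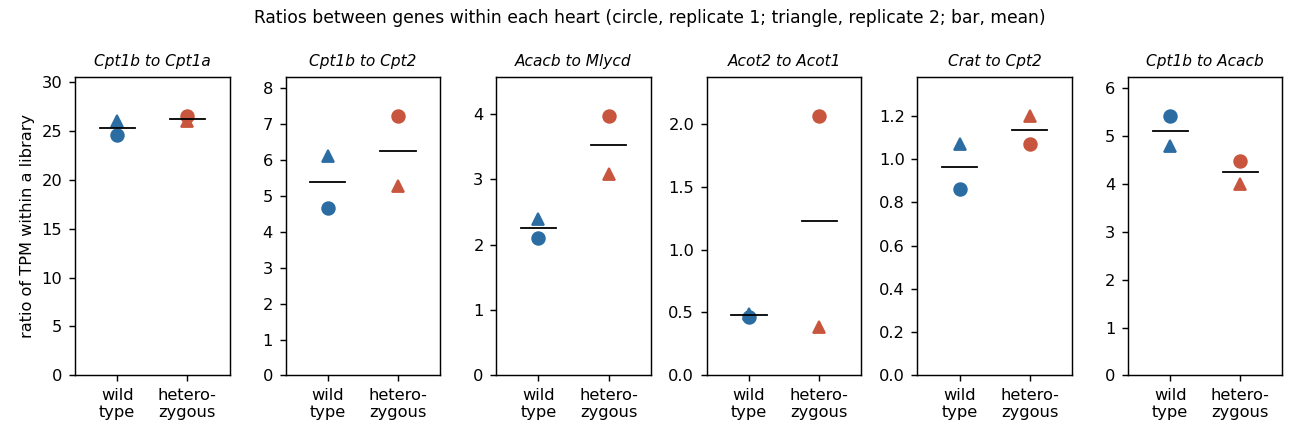
Ratio of the TPM of 2 genes within each heart, with an axis from 0 for each ratio, circles for replicate 1, triangles for replicate 2 and bars for means. Genotypes are apart for *Acacb* to *Mlycd*, *Crat* to *Cpt2* and *Cpt1b* to *Acacb*, and *Cpt1b* to *Cpt1a* lies between 24.5 and 26.5 in all hearts.

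The neighbouring steps of the pathway were read from 5 lists of 44 genes, of which 33 were tested, and 0 passed the threshold in either direction in limma. Among the other carnitine genes, 6 of the 8 were tested, 1 was apart and lower and 3 were apart and higher, with a median log2 fold change of 0.21. That median was -0.12 with TPM as deposited. *Slc25a20* had the lowest and *Slc22a21* the highest value of the list, and *Cpt1c* was among the higher genes. The other malonyl-CoA genes had 2 lower, 2 higher and 3 overlapping among 7 tested, with a median of -0.04. *Acly*, which makes cytosolic acetyl-CoA from citrate, was lowest at 9.10 and 8.36 scaled TPM against 7.11 and 4.70 (log2 fold change -0.52, adjusted p = 0.382). *Slc25a1*, the mitochondrial citrate carrier, was highest, at 2.16 and 1.99 against 2.49 and 3.34 (log2 fold change 0.34, adjusted p = 0.428, and 0.03 with TPM as deposited). *Acaca*, the cytosolic partner isoform of *Acacb*, had between 0.40 and 0.65 TPM and was not tested.

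AMPK phosphorylates and inhibits acetyl-CoA carboxylase. Of its 7 subunit genes 6 were tested, 0 were lower and 2 were higher in both heterozygous hearts, with a median of 0.21. That median was -0.15 with TPM as deposited, beside -0.35 for all tested genes, and 0.03 without heterozygous replicate 1. *Prkaa2*, a catalytic subunit gene under the minimum level for testing, stood at 1.03 and 0.907 scaled TPM in wild-type and 0.719 and 0.659 in heterozygous hearts, and was also singled out after its values were seen. *Prkag2*, a regulatory subunit gene, had the highest value, at 8.21 and 7.25 scaled TPM in wild-type and 10.03 and 11.1 in heterozygous hearts (log2 fold change 0.41, adjusted p = 0.371, and 0.01 with TPM as deposited). *Prkaa1*, a catalytic subunit gene, had the lowest, at -0.03 (adjusted p = 0.946). Of 12 other thioesterase genes only 5 were abundant enough to be tested, with 2 lower and 3 overlapping and log2 fold changes between -0.19 for *Acot7* (adjusted p = 0.646) and 0.03 for *Acot11* (adjusted p = 0.932, and -0.26 with TPM as deposited). *Acot6*, of the same chromosome 12 cluster as *Acot1* and *Acot2*, had 0.39 and 0.38 TPM in wild-type and 0.11 and 0.11 in heterozygous hearts, a level too low to be tested, and was singled out after its values were seen.

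Acyl-CoA synthetases and acyl-CoA binding proteins supply the substrate of CPT1. All 9 genes of this list were tested, 4 were lower and 2 higher in both heterozygous hearts, and the median was 0.02. It was -0.39 over the genes with a mean of 5 TPM or more, which were only *Acsl1*, *Slc27a1* and *Dbi*. With a library left out it was between -0.09 and 0.05, so its sign turned with the filter and with single libraries. The medians of all 5 lists were below 0 with TPM as deposited, between -0.38 and -0.12. On that scale the median of all tested genes was itself -0.35. *Acsl1*, the main long-chain synthetase of heart muscle, was lowest, at 36.1 and 38.8 scaled TPM in wild-type and 29.8 and 26.1 in heterozygous hearts (log2 fold change -0.41, standard error 0.17, adjusted p = 0.393 from limma). *Acsl3* was highest, at 1.13 and 0.852 against 2.05 and 1.23 (log2 fold change 0.39, adjusted p = 0.434).

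**Figure D4:**
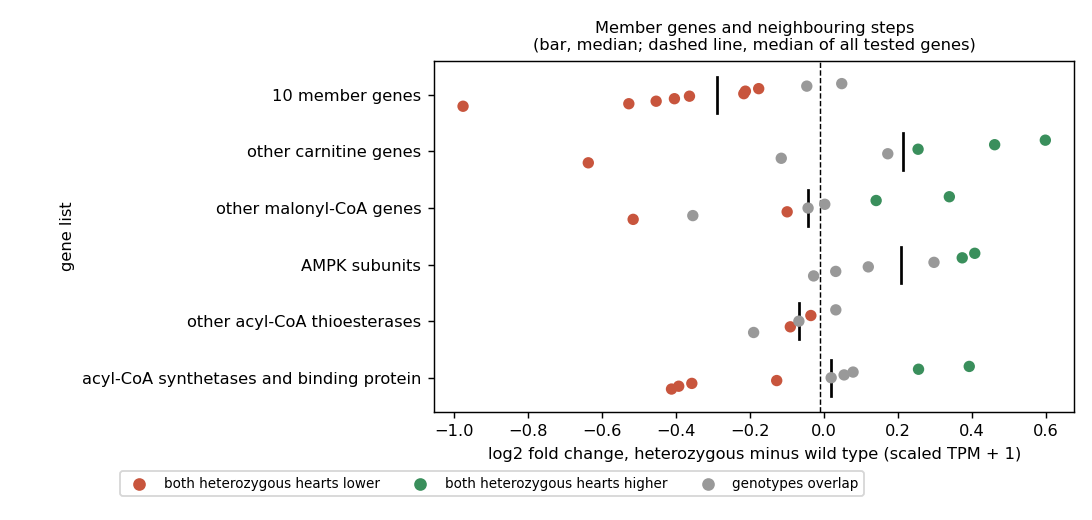
Log2 fold change of each tested gene in the 10-gene group and in 5 lists of neighbouring steps, coloured by whether both heterozygous hearts lay lower, higher or neither, with bars for medians. The 10-gene group has its median at -0.29 and 8 genes with both heterozygous hearts lower, and the other lists have medians between -0.07 and 0.21.

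As a check of the heart label, the 8 cardiomyocyte markers summed to between 20486 and 25394 scaled TPM and overlapped between genotypes, with 3 of the 8 lower in both heterozygous hearts. Their median log2 fold change was -0.21, beside -0.29 for the 10 genes, with 6 of the 8 below 0, among them *Pln* at -0.48, *Actc1* at -0.47 and *Myl2* at -0.39. The defining fast skeletal myosin genes *Myh1*, *Myh2* and *Myh4* were listed at 0 in every library. The other skeletal muscle fibre markers were above 0 in every library, *Ckm*, which heart muscle also expresses, between 282.1 and 399.9 scaled TPM, *Tnnt3* between 0.363 and 1.72 and *Actn3* between 0.012 and 0.148. The 6 adipocyte markers, 1 of them tested, summed to between 5.64 and 7.88 scaled TPM, most of it *Cidea*, which stood between 5.48 and 6.18 and overlapped. *Cfd* stood at 1.73 and 0.742 scaled TPM in wild-type and 0.0853 and 0.582 in heterozygous hearts. *Adipoq* stood at 0.333 and 0.103 against 0.0487 and 0.0989, and *Plin1*, *Lep* and *Ucp1* at no more than 0.110 in any heart. The 5 fibroblast markers summed to 40.7 and 59.3 scaled TPM in wild-type and 32.5 and 38.9 in heterozygous hearts, with 2 of the 5 lower in both heterozygous hearts, and the 5 endothelial markers to 68.4 and 70.1 against 61.9 and 65.9, with 2 of 5 lower and 1 higher. The 5 macrophage markers, 4 of them tested, summed to between 14.1 and 19.5 scaled TPM and overlapped. The 5 erythroid markers reached 2104 scaled TPM in heterozygous replicate 2 and lay between 934.4 and 981.0 in the other hearts. The 4 atrial markers summed to 810.5 scaled TPM in wild-type replicate 1 and to between 1910 and 3256 in the others. The part of these differences in the values of the 10 genes was not tested.

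Promoter windows of 250 bases before and 50 after the start site were found in RefSeq for 7 members (GRCm38.p6, the assembly of mm10), and not for *Cpt1b*, *Crat* and *Acot13*. The letters AGGTCA, bound by nuclear receptors such as the PPAR and ERR families, occurred on either strand in 2 of the 7, *Cpt1a* and *Acacb*, and in 16.3% of all 32851 windows. AAGGTCA, which contains AGGTCA, occurred in 1 of the 7, *Acacb*, and in 4.7% of all windows. AGGNGGC, a part of the CTCF core, occurred in 2 of the 7, *Cpt2* and *Mlycd*, and in 29.4% of all windows. The windows of *Cpt1a* (chr19:3323051-3323350, plus strand), *Cpt2* (chr4:107923540-107923839, minus strand) and *Mlycd* (chr8:119394644-119394943, plus strand) are shown as those with a match before the start site, 5′ to 3′ along the gene, with the matches in capitals. The match begins 94 bases before the start site in *Cpt1a*, 158 and 92 bases before it in *Cpt2* and 116 bases before it in *Mlycd*. A match is a description of letters and not a binding site.
Cpt1a: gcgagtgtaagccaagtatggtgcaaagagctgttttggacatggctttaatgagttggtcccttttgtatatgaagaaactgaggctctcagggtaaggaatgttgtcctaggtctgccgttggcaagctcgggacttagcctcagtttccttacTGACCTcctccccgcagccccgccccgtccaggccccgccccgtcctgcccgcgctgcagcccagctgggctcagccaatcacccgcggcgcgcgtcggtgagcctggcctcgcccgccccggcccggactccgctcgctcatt
Cpt2: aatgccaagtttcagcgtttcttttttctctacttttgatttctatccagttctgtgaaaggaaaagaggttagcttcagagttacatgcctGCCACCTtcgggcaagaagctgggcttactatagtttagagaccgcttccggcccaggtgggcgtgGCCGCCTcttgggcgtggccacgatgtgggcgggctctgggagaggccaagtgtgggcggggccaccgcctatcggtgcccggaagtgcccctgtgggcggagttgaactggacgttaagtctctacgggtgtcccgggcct
Mlycd: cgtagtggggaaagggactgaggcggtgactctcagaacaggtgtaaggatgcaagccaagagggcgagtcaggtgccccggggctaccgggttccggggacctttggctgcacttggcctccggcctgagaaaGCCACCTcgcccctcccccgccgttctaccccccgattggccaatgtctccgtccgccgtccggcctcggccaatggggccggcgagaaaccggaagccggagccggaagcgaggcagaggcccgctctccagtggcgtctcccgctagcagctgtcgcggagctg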

How the data were processed

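RNA-seq libraries from polyA RNA of 4 hearts were analysed, 2 wild-type and 2 *Ctcf* heterozygous, grouped by their labels. The authors trimmed reads with Trim Galore, aligned them to mm10 with STAR, quantified genes with RSEM and deposited TPM rounded to 2 decimals. DESeq2 is also listed in the submitters' processing notes, and counts were not used here. The annotation release is not given in the sources used here.

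TPM were divided by median-of-ratios factors between 0.821 and 1.27 and put on the log2 scale with a pseudocount of 1. Genes needed a mean of 1 TPM or more, which left 10036, and limma was fitted to all of these (3.58.1, R 4.3.3, eBayes with trend, two-sided, Benjamini-Hochberg over all tested genes); the script was tested on simulated data. The threshold for a call was a fold change over 1.5 together with adjusted p under 0.05. Positions are from GENCODE M21, of the same build, which matched 55141 identifiers. Nuclear copies of mt- genes were found with BLAST+ (2.17.0) at 95% identity over 80% of their length.

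The genes, lists and tests were chosen with earlier results of these data known. Named beside the members by rule were *Slc25a20* and the lowest and highest gene of each list. Outside this rule, *Ctcf*, *Gm44502*, *Dolpp1*, *Gm16323*, *Acaca*, *Cpt1c*, *Prkaa2*, *Acot6*, *Crot*, *Aldh9a1*, *Slc27a1*, *Dbi* and cell type markers were also named. One listed symbol, *Tmlhe*, was not matched. Protein sequences were not used here. Each library is labelled as a replicate, and p-values measure the spread between these libraries. In limma the spread of each gene is moderated towards that of genes of similar level, with 4.76 prior degrees of freedom. Alternatives were other pseudocounts, filters, scalings, thresholds and eBayes settings, a replicate block and each library left out. Sums of *Cpt1b* with *Gm44502* and of *Slc22a5* with *Slc22a21* were added after the data were seen.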

Additional observations from a re-analysis of the deposited data

How the results depend on the processing

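No member passed the threshold in any of the alternatives, whose counts were 0 lower and 0 higher throughout. The count of members with both heterozygous hearts lower was between 5 and 10, the 5 being of 7 genes left at a mean TPM of at least 5. With a library left out, the remaining heterozygous values lay below the remaining wild-type values for between 8 and 9 members, a rule that is easier to meet. The count higher was then between 0 and 2, being 1 without wild-type replicate 2 and 2 without heterozygous replicate 2. The matching share of all tested genes higher is not given here, so these counts cannot be read against it. The share of all tested genes with heterozygous hearts lower was 24% as reported and 24.55% at a mean TPM of at least 5. This share was 58.9% with mt- genes removed, where 9 members were lower, and between 34.6% and 41.3% with a library left out. The members' median log2 fold change was -0.18 with a pseudocount of 5, -0.21 at a mean TPM of at least 5, -0.67 with TPM as deposited, -0.62 with mt- genes removed, -0.24 with their nuclear copies removed as well, -0.23 under quantile normalization and between -0.37 and -0.23 with a library left out.

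*Slc22a5* turned to 0.021 with mt- genes and nuclear copies removed and to 0.092 when summed with *Slc22a21*, and lay between -0.20 and 0.10 with a library left out. *Acacb* turned to -0.37 with TPM as deposited and to -0.27 with mt- genes removed, and lay between -0.062 and 0.15 with a library left out. *Prkaa1* turned to 0.031 with mt- genes and copies removed (-0.13 to 0.064 with a library left out). *Acot11* turned to -0.26 with TPM as deposited and to -0.23 with mt- genes removed. The ratio of *Cpt1b* to *Cpt1a* turned to a log2 difference of -0.072 with 1 TPM added to both terms. With a library left out, the log2 differences of the ratios were between 0.01 and 0.10 for *Cpt1b* to *Cpt1a*, -0.018 and 0.44 for *Cpt1b* to *Cpt2*, 0.46 and 0.82 for *Acacb* to *Mlycd*, -0.31 and 2.11 for *Acot2* to *Acot1*, 0.09 and 0.39 for *Crat* to *Cpt2*, and -0.35 and -0.17 for *Cpt1b* to *Acacb*. The cause of these changes was not tested.

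Same-numbered libraries share only a number, and across genes the correlation of their deviations was 0.101. With the replicate number as a block, 8 of all tested genes were called lower and 3 higher, against 3 and 0 without the block, and among the members the count stayed at 0 with a smallest adjusted p of 0.220. Within same-numbered pairs the log2 differences had opposite signs for *Cpt1b* to *Cpt1a*, at -0.0030 and 0.11, for *Cpt1b* to *Cpt2*, at -0.22 and 0.64, and for *Acot2* to *Acot1*, at -0.35 and 2.15.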
